A study of Sus scrofa with 48 samples.

Results

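The translation initiation and elongation factors were described in whole blood of growing pigs. They were taken as the spots whose gene name on the array begins with EIF or EEF and a digit, without the EIF2AK kinases, among the spots the authors had kept after filtering. Of 147 such spots on the array, 133 were kept, for 54 genes, out of 37113 kept spots and 10946 named genes in all. The other 14 spots were not tested, and EIF1AD, EIF2C1 and EIF3M had no spot kept. Of the 54 genes, 29 had 1 spot and 25 had several.

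The series holds 48 French Large White castrated male pigs of 132 days of age, each with 1 one-colour array of whole blood taken at slaughter. The pigs came from 2 lines selected in opposite directions for residual feed intake (RFI), the feed an animal eats beyond what its growth and maintenance would require. Feed was given ad libitum as 1 of 2 diets, 1 high in both fat and fiber (HF) and 1 low in both (LF). The 4 groups, low RFI HF, low RFI LF, high RFI HF and high RFI LF, held 12 pigs each. With 1 line per direction, an effect of selection and any other difference between the 2 lines cannot be told apart.

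Protein synthesis starts when the small ribosomal subunit, carrying EIF3, EIF1, EIF1A and the initiator tRNA delivered by EIF2, is brought to the cap of an mRNA by the EIF4 factors and scans to a start codon. EIF5 and EIF5B then let the large subunit join, and EEF1 and EEF2 drive the addition of amino acids. In blood, lymphocytes and the youngest red cells are known for active protein synthesis. In whole blood, fewer cells of a type and less RNA per cell cannot be told apart. Blood cells of these pigs were also counted in the study, and those counts were not used here.

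The depth of arrays is their signal over background. The median intensity was 5.91 to 16.0 times the local background, and 40771 to 46727 of the 60306 probe spots of an array were well above background. Of the 133 factor spots, 131 were well above background on every array and 0 were saturated on any. The arrays were on 6 slides of 8, each slide with 2 pigs of every group. The deposited column of 1 pig, high RFI HF replicate 1, held 1 value repeated in 37090 rows, so that its values were rebuilt from its scanner file. Levels are log2 intensities with each array's median at 0, and a difference is the low RFI mean minus the high RFI mean, so that a positive value is a higher level in low RFI pigs.

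EIF1B, which is closely related to the start codon selection factor EIF1, had 1 spot under its own symbol. A further 7 kept spots carried the name LOC414417, whose number is the RefSeq gene number of EIF1B, and the files give them the same transcript as the EIF1B spot, so that they were read beside it as other probes of the same gene. They were not counted among the 133 spots. Of these 7 probes of 60 bases, 5 shared an exact run of 12 or more bases with the EIF1B probe and 2 did not. Windows of 30 bases, 5′ to 3′, from the EIF1B probe and from 3 of the others are shown because the result rests on these spots reading the same transcript. Capitals in the first window mark bases in a run of 12 or more shared with at least 4 of the 7 probes, and capitals in the others mark bases in such a run shared with the EIF1B probe.
EIF1B A_72_P039066: acagaaaACATGGGGTATGTAGGCTAGTAA
LOC414417 A_72_P590269: GGCTAGTAACACATAAGAAAtttcagtaag
LOC414417 A_72_P528180: AACACATAAGAAAATTTCAGtaagatggtt
LOC414417 A_72_P659046: ggctgcctcgtgaaatgattctccgcagta
The last window holds no capital, since its probe shared a run of at most 6 bases with the EIF1B probe. The probe of EIF1 itself also shared at most 6 bases with that of EIF1B.

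EIF1B was the 1 factor gene that differed between lines by a wide margin. Its level was 3.88 at the lowest, 4.60 at the median and 5.21 at the highest in the low RFI LF pigs, and 3.12, 4.39 and 4.94 in the low RFI HF pigs. In the high RFI LF pigs it was 2.69, 2.92 and 3.75, and in the high RFI HF pigs 2.77, 3.06 and 4.21. All 24 low RFI pigs were above the median of the high RFI pigs, and 18 of them were above every high RFI pig, so that the lines overlapped in a minority of animals. EIF1B was overexpressed 2.51-fold in low RFI pigs, a log2 difference of 1.33 ± 0.13 (SE, n = 24 per line; limma, adjusted P = 2.56e-10 over all genes). On the 6 slides taken one by one, the difference lay between 0.72 and 1.60.

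The overlap came from few pigs. The lowest low RFI pig, on the HF diet, was at 3.12, while the other 23 low RFI pigs were at 3.86 or more. Within the LF diet the lines did not overlap, the lowest low RFI pig being at 3.88 and the highest high RFI pig at 3.75. Among high RFI pigs, the widest gap, from 3.75 to 4.10, set 2 apart, both on the HF diet. Only these 2 reached the level of those 23 low RFI pigs. With a lower cut, chosen after the values were seen, 5 high RFI pigs were at 3.54 or more. Of these 5, 3 were on the LF diet and 2 on the HF diet, and the other 19 high RFI pigs were at 3.20 or less. These 5 pigs were spread over 4 slides. At all 8 spots of the gene the same 5 high RFI pigs had the highest levels of their line and the same low RFI pig had the lowest. After each spot was centred on its own mean, the 8 spots of a pig had a median SD of 0.087, against an SD of 0.46 between pigs of a group.

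The 7 LOC414417 spots gave line differences of 1.29 to 1.47, with adjusted P between 5.15e-11 and 3.06e-10 (limma over all spots). Probe A_72_P659046, with the window without capitals, read 3.43, 4.91 and 5.79 as lowest, median and highest in low RFI pigs and 3.07, 3.45 and 4.54 in high RFI pigs, and differed by 1.34 ± 0.13 (SE). The 8 spots are measurements of the same 48 blood samples and add no animals to the comparison.

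**Figure D1:**
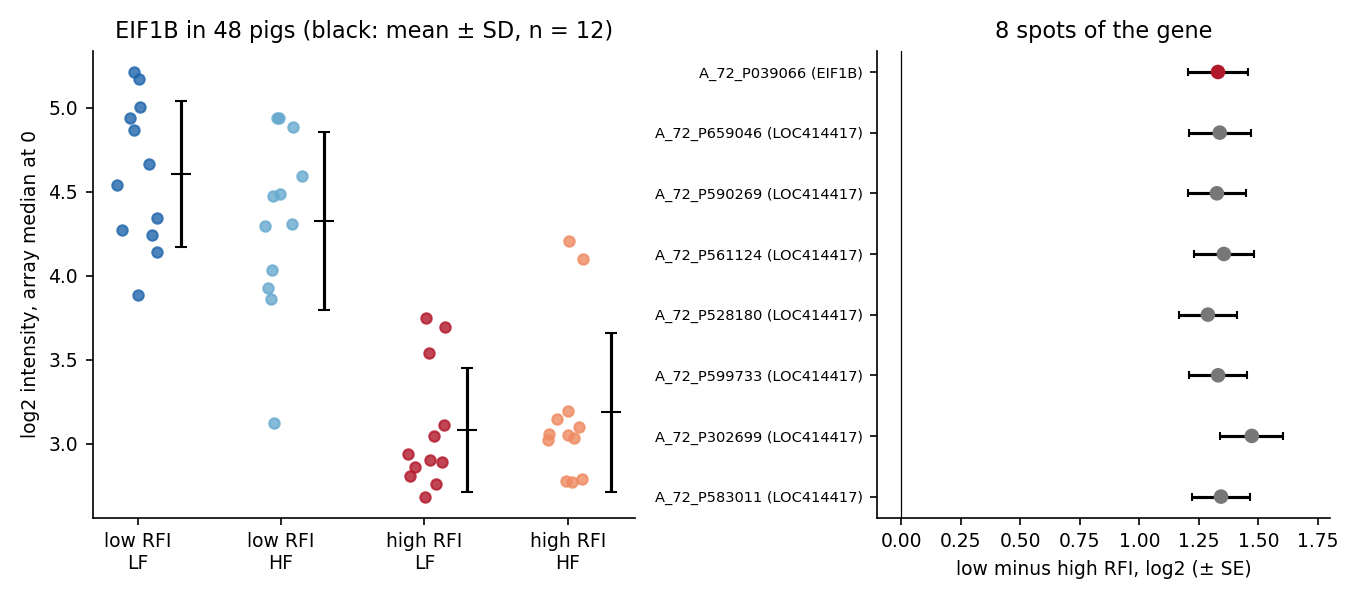
Left, log2 intensity of EIF1B (array median at 0) in each pig by line and diet, with the group mean ± SD in black (n = 12). Right, line difference (log2, low minus high RFI, ± SE) at the EIF1B spot in red and at the 7 LOC414417 spots in grey, which lie between 1.29 and 1.47.

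The line difference of EIF1B was present under both diets. Within the HF diet it was 1.14 ± 0.18 (SE, n = 12 per line; limma, adjusted P = 0.00018) and within the LF diet 1.52 ± 0.18 (adjusted P = 1.82e-07). The difference between these, -0.39 ± 0.26, did not pass the test (unadjusted P = 0.13).

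The place of EIF1B among its chromosomal neighbours was read from RefSeq gene order (Sscrofa11.1), a choice made after its values were seen. Of the 10 protein-coding genes on each side, 11 were measured and 1 was called, beside 3.29% of all genes. It was RPL14, the gene 2 places from EIF1B, which encodes a protein of the large ribosomal subunit. RPL14 was higher in low RFI pigs by 0.41 ± 0.07 (SE; limma, adjusted P = 6.12e-05), with 23 of 24 low RFI pigs above the high RFI median, and 6 of its 7 spots were called. The 10 other measured neighbours had differences of -0.17 to 0.10, the lowest adjusted P being 0.080. Whether the values of RPL14 and EIF1B are linked was not tested.

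Over all features the line comparison called 2.77% of spots and 3.29% of genes (adjusted P under 0.05). Of the factor spots, 4 of 133 were called, and of the factor genes 1 of 54, EIF1B. A share of 4 spots in 133 is near the share of all spots. The 3 called spots other than EIF1B belonged to EEF1A1 and EIF1AX. All 4 were higher in the low RFI line, the direction in which 1.32% of all spots were called. Before adjustment, 9 factor genes were under a P of 0.05, as were 13.1% of all genes. Of the 9, 8 were higher and 1 was lower, where 7.43% of all genes were higher and 5.63% lower at that P.

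**Figure D2:**
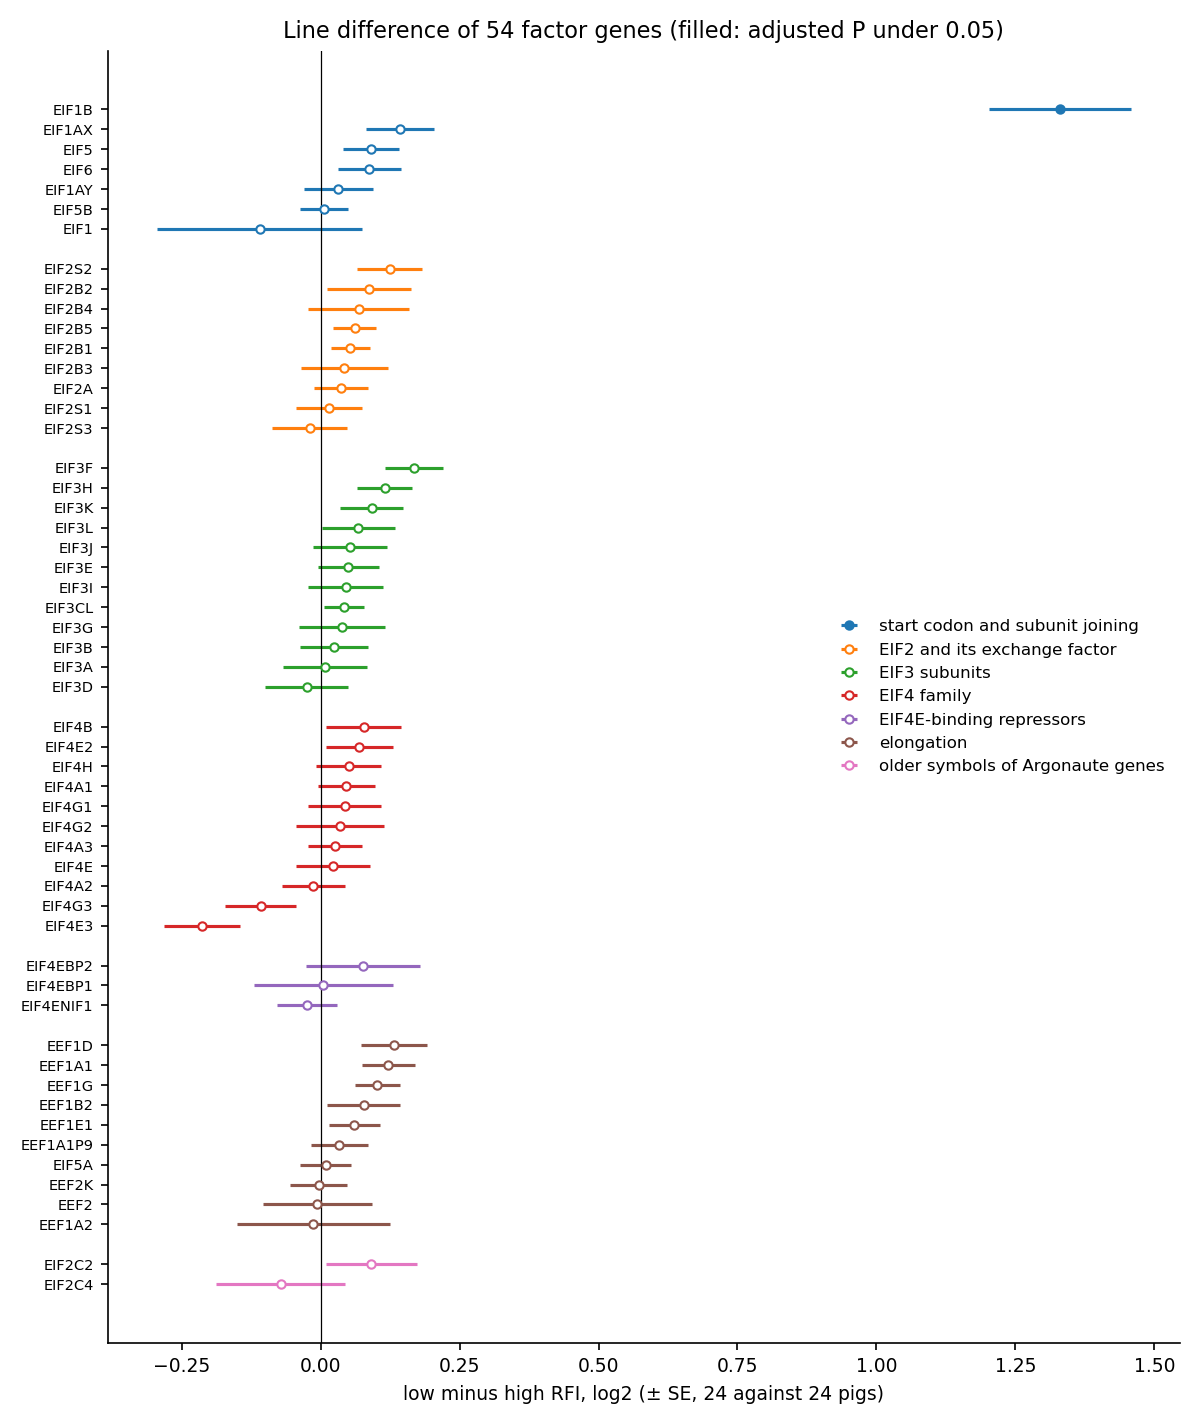
Line difference (log2, low minus high RFI, ± SE, 24 against 24 pigs) of the 54 factor genes, grouped by role, with a filled point for an adjusted P under 0.05. EIF1B stands at 1.33, while the other 53 genes lie between -0.21 and 0.17.

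The 53 genes other than EIF1B had small differences. They ranged from -0.21 to 0.17, all under 0.25 in size, and 42 of them were above 0, or 44 without the single pigs that stood apart in EIF1 and EIF2C4. Their median was 0.04, beside 0.03 over all genes, of which 63.9% were above 0. With the uncorrected column of 1 pig in place of the rebuilt one, 25 of the 53 were above 0 and the median of all genes moved to -0.08.

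Among the other factors of start codon choice and subunit joining, EIF1AX, which encodes eIF1A, the partner of EIF1 in scanning, was called at 1 of its 2 spots. Probe A_72_P350693 read 0.64, 1.33 and 1.72 as lowest, median and highest in low RFI pigs and 0.51, 1.003 and 1.57 in high RFI pigs, a difference of 0.27 ± 0.07 (SE; limma, adjusted P = 0.023). Probe O9436 read -0.45, -0.09 and 0.31 against -0.50, -0.08 and 0.40, a difference of 0.01 ± 0.06 (adjusted P = 0.98). The lines overlapped widely at both spots, and 20 of 24 low RFI pigs were above the high RFI median at the first spot against 12 at the second. A further spot, named LOC100522912 and listed by RefSeq under the gene number of EIF1AX, differed by 0.01 ± 0.07. The first 30 bases of each of the 2 probes are shown because they gave different answers, and they share no run over 5 bases.
EIF1AX A_72_P350693: ccaatagagtgtaaatatgttgtattacta
EIF1AX O9436: gcagatgatgatgaagatattgatgatatc

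EIF5, which makes EIF2 hydrolyse GTP at the start codon, had a difference of 0.09 ± 0.05 (unadjusted P = 0.079). EIF6, which keeps the large subunit from joining too early, had 0.09 ± 0.06 over 3 spots, EIF1AY 0.03 ± 0.06, and EIF5B, the factor of subunit joining, 0.01 ± 0.04. None of these passed the adjusted test. EIF1 had 1 spot, and 1 pig, high RFI LF replicate 1, read 3.66 there while the other 47 pigs read -1.06 to -0.38. On that array 13 spots stood over 3 log2 units above the median of the other pigs, 2 of them within 3 rows and columns of the EIF1 spot. EIF1 had a difference of -0.11 with this pig and 0.08 without it, chosen after the value was seen, so that its direction rests on 1 spot of 1 array.

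EIF2 carries the initiator tRNA and is recharged with GTP by the exchange factor EIF2B. With EIF2A, a separate factor that can also bring initiator tRNA, this group held 9 genes. Of these, 8 had differences above 0, with a median of 0.05, and 0 were called. EIF2S2, the beta subunit of EIF2, had the lowest P, with a difference of 0.12 ± 0.06 (unadjusted P = 0.039, adjusted P = 0.33), and 19 of 24 low RFI pigs were above the high RFI median. The alpha subunit EIF2S1, whose phosphorylation shuts down initiation, had 0.02 ± 0.06, and the gamma subunit EIF2S3 had -0.02 ± 0.07. EIF2S1 had 4 further spots, named LOC100155472 by its RefSeq gene number, between 0.03 and 0.08, none of them called. The 5 EIF2B subunits lay between 0.04 and 0.09, with EIF2B5, the catalytic subunit, at 0.06 ± 0.04. EIF2A had 0.04 ± 0.05.

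EIF3 is the scaffold that holds the small subunit complex together. Of its 12 measured genes, 11 had differences above 0, with a median of 0.05, and 0 were called. EIF3F, a subunit with an MPN domain, had the lowest P after EIF1B among all 54 genes. It read 5.75, 6.17 and 6.48 in low RFI pigs and 5.52, 6.02 and 6.23 in high RFI pigs, and 20 of 24 low RFI pigs were above the high RFI median. Its difference of 0.17 ± 0.05 (SE) was present on all 6 slides, between 0.06 and 0.29, and did not pass over all genes (limma, unadjusted P = 0.0024, adjusted P = 0.063). With the slide as a block it did (adjusted P = 0.029). EIF3H, the other MPN subunit, had 0.12 ± 0.05 (unadjusted P = 0.025, adjusted P = 0.26) and EIF3K 0.09 ± 0.06. EIF3E had 15 spots, of which 14 were above 0, between -0.01 and 0.07. EIF3D, which itself can bind the cap, had -0.03 ± 0.07. EIF3CL is nearly identical to EIF3C in the mammals where both are known, so that its 2 spots could read either.

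The EIF4 factors bind the cap and unwind the mRNA. Of 11 genes, 8 had differences above 0, with a median of 0.04, and 0 were called. EIF4E3, a less common relative of the cap-binding protein EIF4E, had the lowest difference of all 54 genes. It read -1.08, -0.52 and 0.01 in low RFI pigs and -0.67, -0.37 and 0.25 in high RFI pigs, and 20 of 24 low RFI pigs were below the high RFI median. The difference was -0.21 ± 0.07 (SE; limma, unadjusted P = 0.0029, adjusted P = 0.071). It varied between slides, from -0.56 at the lowest to -0.07, -0.00094 and 0.0045 on the 3 slides where it was nearest to 0. EIF4E itself had 0.02 ± 0.07 and EIF4E2 0.07 ± 0.06. The scaffolds EIF4G1 and EIF4G3 had 0.04 ± 0.07 and -0.11 ± 0.06. Of the helicases, EIF4A1 had 0.05 ± 0.05, and EIF4A2, with 15 spots, had 12 below 0 and 3 above, from -0.07 to 0.13. EIF4B and EIF4H, which help the helicase, had 0.08 ± 0.07 and 0.05 ± 0.06.

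None of the 3 repressors that hold EIF4E away from EIF4G was called. EIF4EBP1 had 0.005 ± 0.12, EIF4EBP2 0.08 ± 0.10 and EIF4ENIF1, which also carries EIF4E into the nucleus, -0.02 ± 0.05. EIF4EBP2 had 2 further spots, named LOC100523927 by its RefSeq gene number, at 0.08 and 0.09, neither of them called. EIF4EBP1 varied from -1.26 to 0.75 over the pigs. It had 2 spots of identical sequence, and their difference varied between pigs with an SD of 0.39. For the 2 such pairs of EIF3E, this SD was 0.12 in each.

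Of the 10 elongation genes, 7 had differences above 0, with a median of 0.05, and 0 were called on gene values. EEF1A1, which delivers aminoacyl-tRNA to the ribosome and whose 21 spots were the most of any factor, had a difference above 0 at every spot, between 0.08 and 0.27. Averaged over its probes it read 6.98, 7.34 and 7.69 in low RFI pigs and 6.97, 7.22 and 7.56 in high RFI pigs, and 21 of 24 low RFI pigs were above the high RFI median. The difference was 0.12 ± 0.05 (SE; limma, unadjusted P = 0.014, adjusted P = 0.18).

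At 2 of the 21 spots EEF1A1 was called. Probe CUST_86_PI427286967 read 8.43, 8.74 and 9.12 in low RFI pigs and 8.04, 8.47 and 8.80 in high RFI pigs, a difference of 0.27 ± 0.05 (adjusted P = 0.0013). Probe A_72_P016236 read 8.09, 8.56 and 8.88 against 7.86, 8.31 and 8.71, a difference of 0.22 ± 0.06 (adjusted P = 0.034). The lines overlapped at both spots. These probes are nearly one sequence, identical in a run of 55 bases, and differ at 2 positions near the 3′ end, so that they are not separate evidence. The last 30 bases of each are shown with the differing positions in capitals.
EEF1A1 CUST_86_PI427286967: ttgttttgtgtgtggcagtttttaaAGtat
EEF1A1 A_72_P016236: ttgttttgtgtgtggcagtttttaaGTtat
The other 19 spots, which share a run of at most 27 bases with this pair, had adjusted P of 0.11 or more. EEF1A1 has many processed copies in mammalian genomes, and which copies each probe reads was not tested.

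Of the subunits of the exchange factor of EEF1A1, none was called. EEF1D had a difference of 0.13 ± 0.06 (unadjusted P = 0.030, adjusted P = 0.29), EEF1G 0.10 ± 0.04 (unadjusted P = 0.016, adjusted P = 0.20) and EEF1B2 0.08 ± 0.07. EEF1G was higher in low RFI pigs on 5 of 6 slides. EEF2, which moves the ribosome along the mRNA, had -0.01 ± 0.10, and its kinase EEF2K had -0.0033 ± 0.05. EIF5A, which relieves stalled ribosomes, had 0.01 ± 0.05. EEF1A2, the form of muscle and neurons, had -0.01 ± 0.14.

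**Figure D3:**
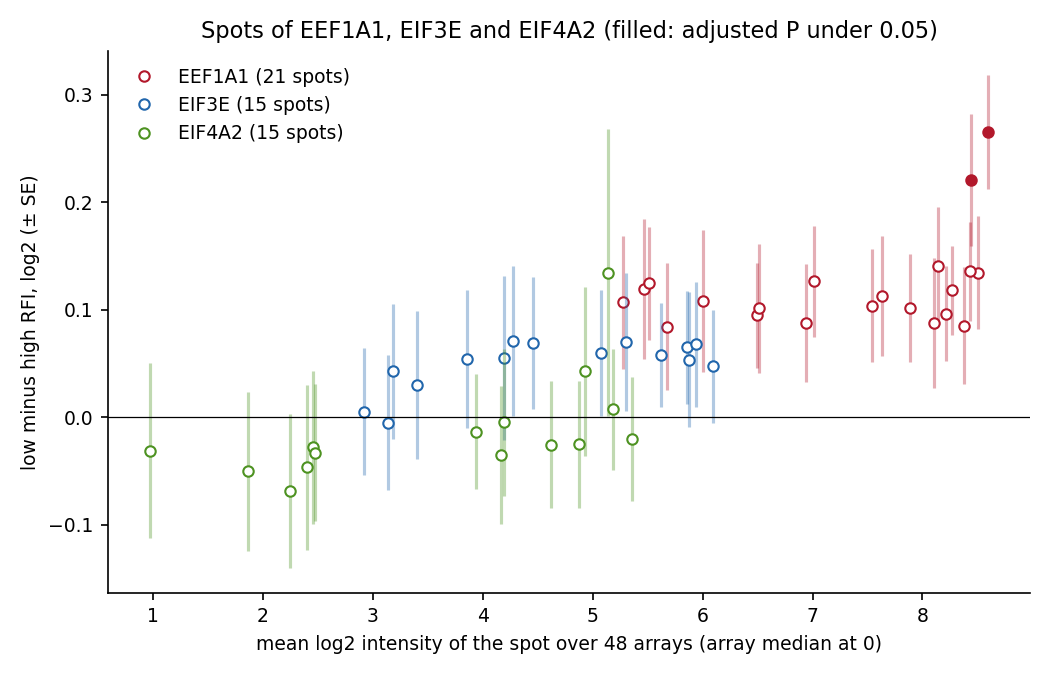
Line difference (log2, low minus high RFI, ± SE) of each spot of EEF1A1, EIF3E and EIF4A2 against its mean log2 intensity over 48 arrays, with a filled point for an adjusted P under 0.05. All 21 EEF1A1 spots lie above 0, the called pair at 0.22 and 0.27, and 12 of 15 EIF4A2 spots lie below 0.

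EIF2C2 and EIF2C4 are older symbols of Argonaute genes, which act in RNA silencing and not in initiation. They had differences of 0.09 ± 0.08 and -0.07 ± 0.12. EIF2C4 read -0.50 in 1 pig, low RFI LF replicate 7, and 0.74 or more in the other 47, and its difference was 0.02 without that pig.

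Within the HF diet, 43 of the 54 factor genes had line differences above 0, beside 54.4% of all genes, with a median of 0.09, while the median of all genes was 0.01. Within the LF diet, 29 were above 0, beside 58.1% of all genes, with a median of 0.0046 and of 0.02 for all genes. EIF1 and EIF2C4, each with 1 LF pig that stood apart, were at -0.31 and -0.13 within LF and were counted with those pigs. In both diets EIF1B was the 1 factor gene called, where 0.904% and 0.32% of all genes were called. Within HF a further gene was called in 3 alternative fits, EIF3F with the slide as a block (adjusted P = 0.040) or the replicate number as a block (adjusted P = 0.047) and EEF1A1 with the brightest probe of each gene (adjusted P = 0.042). At an unadjusted P under 0.05, 11 factor genes passed within HF and 1 within LF, where 10.1% and 7.73% of all genes did. Those within HF included EIF3F at 0.26 (unadjusted P = 0.0012), EIF3H at 0.21, EEF1D at 0.20, EIF1AX at 0.19 and EIF3K at 0.19, with EIF4E3 at -0.25. Markers of blood cell types also differed by line within a diet. Of the 44 measured, CD14, a monocyte marker, at -0.77 (adjusted P = 0.032) and MS4A1, a B cell marker, at -0.39 (adjusted P = 0.037) were called within HF, while within LF they were at -0.18 and -0.32. SLC4A1, a red cell marker, was called within LF at 0.50 (adjusted P = 0.011) and was at 0.01 within HF. The median of the B cell list was -0.10 within HF and -0.31 within LF, MS4A1 being the 1 of its 4 markers with the lower difference within HF. That of the neutrophil list was -0.40 and -0.06, that of the monocyte list -0.14 and 0.06, and that of the platelet list -0.08 and 0.02. That of the T cell list was 0.20 and 0.11, that of the cytotoxic list 0.15 and 0.04, and that of the erythroid list -0.06 and 0.22. The part of these cell types in the factor values within HF was not tested.

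The interaction, the line difference within HF minus that within LF, was above 0 for 42 of the 54 genes and for 50.5% of all genes, with a median of 0.09 against 0.0021 over all genes. EIF1 and EIF2C4 were among the 42, at 0.41 and 0.12, with the single pigs that stood apart kept. The genes share the same 48 pigs and are not replicates. No factor gene reached an unadjusted P of 0.05 for the interaction (limma), where 2.33% of all genes did, and 0 of all genes passed the adjusted test, as in the analysis of variance. EIF3H had 0.18 ± 0.10 (unadjusted P = 0.077), EIF3K 0.19 ± 0.11 (unadjusted P = 0.092) and EIF3F 0.17 ± 0.10 (unadjusted P = 0.11). When the 53 genes other than EIF1B were centred on their medians over all pigs and the median gene of each pig was taken, low RFI HF pigs were at -0.18, 0.09 and 0.26 as lowest, median and highest. High RFI HF pigs were at -0.16, -0.04 and 0.16. Low RFI LF pigs were at -0.17, 0.00 and 0.22 and high RFI LF pigs at -0.16, 0.00 and 0.31. The 4 groups overlapped in this measure.

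**Figure D4:**
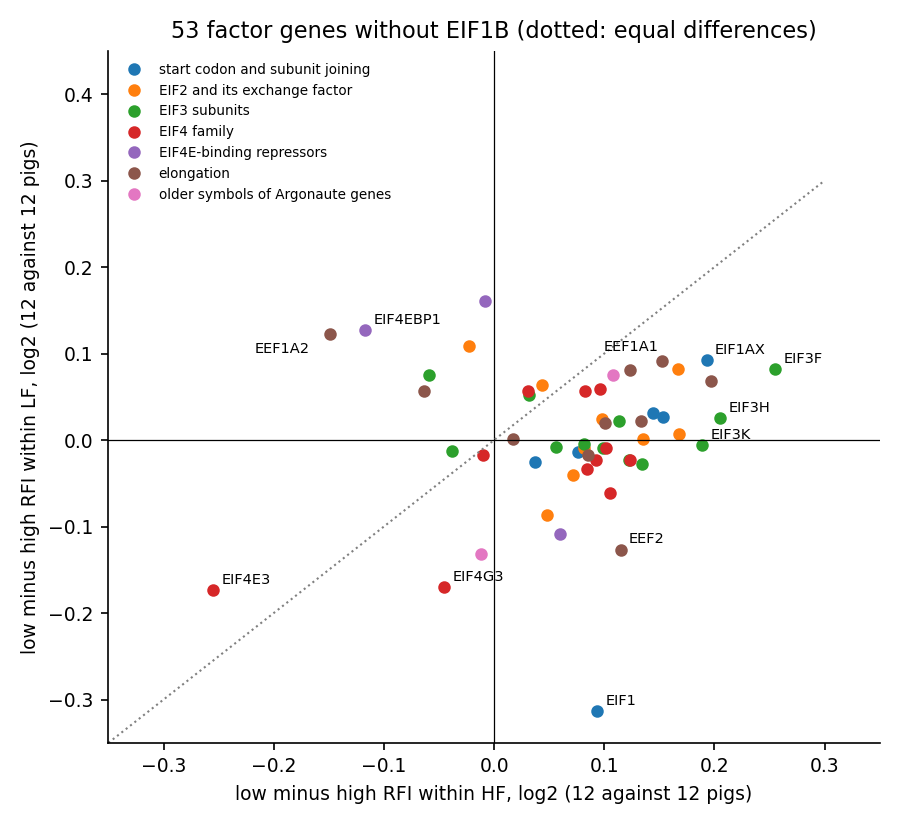
Line difference (log2, low minus high RFI) of the 53 factor genes other than EIF1B within the HF diet, horizontal, and within the LF diet, vertical, each from 12 against 12 pigs, coloured by role. Most points lie right of 0 and near 0 in height, and the dotted line marks equal differences.

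Between diets, 0 factor genes and 0 factor spots were called, as were 0% of all genes and spots in the limma fit and in the analysis of variance. No factor gene had an unadjusted P under 0.05, where 1.94% of all genes did. The diet differences, HF minus LF, ranged from -0.15 to 0.09, with 23 genes above 0, beside 57.4% of all genes, and a median of -0.01. The 3 lowest P values belonged to EIF3D at -0.11 ± 0.07 (unadjusted P = 0.14), EEF2K at -0.07 ± 0.05 (unadjusted P = 0.15) and EIF5 at -0.07 ± 0.05 (unadjusted P = 0.16). Of the 7 genes of start codon choice and subunit joining, 6 had lower means with HF when the high RFI LF pig that stood apart was left out of EIF1. The diet difference of EIF1 was -0.15 with that pig and 0.03 without it. The lowest diet difference among the other 53 genes was -0.11, that of EIF3D.

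Other genes of the pathway, taken from fixed lists, were compared by line in the same way. Of 47 listed, 34 were measured and 0 were called, beside 3.29% of all genes. Of the 34, 23 were above 0 and 2 were at an unadjusted P under 0.05, where 63.9% and 13.1% of all genes were. EIF2AK1, the kinase that phosphorylates EIF2S1 when heme is short and which is most abundant in young red cells, had 0.21 ± 0.08 (unadjusted P = 0.013, adjusted P = 0.18). PABPC1, which binds the poly(A) tail and EIF4G, had -0.12 ± 0.05 (unadjusted P = 0.017, adjusted P = 0.21). The 6 genes of release and recycling lay between -0.01 and 0.05. The 9 measured genes of cap and mTOR signalling lay between -0.11 and 0.05, the lower value being TSC1, a brake on mTOR, which read 5.38 in high RFI HF replicate 8 and 1.25 to 1.81 in the other pigs. Without that pig TSC1 was at 0.05 and the 9 genes lay between -0.04 and 0.05. The 5 mitochondrial factors lay between -0.04 and 0.10, or 0.15 without 1 high RFI HF pig that stood apart in MTIF3. The 5 genes that modify EIF5A and EEF2 lay between -0.02 and 0.09. The 4 genes of the stress response of EIF2 lay between -0.05 and 0.12, or up to 0.09 without 1 low RFI LF pig that stood apart in PPP1R15A. ATF4, whose translation rises when EIF2S1 is phosphorylated, was among them at 0.09 ± 0.05 (unadjusted P = 0.061).

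Of 44 measured markers of blood cell types, 6 were called between lines, beside 3.29% of all genes. Of the B cell markers 4 of 7 were measured and all 4 had lower means in low RFI pigs, with a median difference of -0.21, 2 of them called (MS4A1 and BLNK). The mean level of this list was 1.85 to 3.11 in low RFI and 2.42 to 2.97 in high RFI pigs. Of the T cell markers 7 of 8 were measured and all 7 had higher means in the low RFI line. Their median was 0.16, with 3 at an unadjusted P under 0.05 and 1 called (LCK). The mean level of this list was 2.28 to 2.88 against 2.14 to 3.01. Of the erythroid markers 12 of 15 were measured and 10 had higher means, with a median of 0.10 and 1 called (SLC4A1), and a mean level of 1.83 to 3.26 against 1.60 to 3.18. The 6 monocyte markers had a median of -0.06, with 4 lower, among them CD14, the 1 called, and 2 higher. The 6 neutrophil markers had a median of -0.25, also with 4 lower, among them CXCR2, the 1 called, and 2 higher. Of the 5 cytotoxic markers 3 had higher means, with a median of 0.13, as did 2 of the 4 platelet markers, with a median of -0.04, and 0 of either list were called. The marker differences ranged from -0.47 for CD14 to 0.38 for CA1, a red cell enzyme. The part of cell makeup in the differences of the factor genes was not tested.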

How the data were processed

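RNA of 48 whole blood samples was labelled with Cy3 and hybridised to 60-base probe arrays. Per the file headers, the scanned images were read with Feature Extraction 10.7.3.1, and per the labels the authors worked in R 3.0.2. The deposited table holds log2 median-pixel intensity values of 37113 filtered spots, each array centred on its median. In 47 columns these equal the scanner files' intensity values within 0.000001. The column of 1 pig does not, and was rebuilt from its scanner file. Genes were the means of the probes of one name (10946 genes). Group means were fitted with limma 3.58.1 in R 4.3.3 (contrasts for line, diet, interaction, and line within diet), and P values were adjusted by Benjamini-Hochberg over all spots or genes, with calls at 0.05. Scripts were tested on simulated data. Levels are given as lowest, median and highest over the pigs of a group or line. Differences are contrasts of the means of groups of 12 pigs, and the number of arrays limits the precision. Members and gene lists were chosen with earlier results of these data known. Genes named by rule were those called on any spot, EIF1B and EEF1A1, others by lowest line P up to 25 (Argonaute symbols apart), and 3 each for diet and interaction. Further members were named for their roles, so that alternatives were run on all 54 genes. RefSeq (Sscrofa11.1) listed 50 of the 54 symbols, and served for names and gene order alone. Alternatives covered signal, background, scaling, filters, blocks, priors, the left-out pig and the gene value. One listed marker gene is not reported here.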

Additional observations from a re-analysis of the deposited data

How the results depend on the processing

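EIF1B was called for line under all 14 alternatives to the main setting, with differences of 1.31 to 1.34 and adjusted P up to 1.74e-09. The count of called factor genes for line, 1, was 2 with the slide as a block or the replicate block (EIF1B and EIF3F) and 3 with the brightest probe of each gene (EIF1B, EEF1A1 and EIF1AX). Within HF it was 1 in the main setting and 2 in those same 3 fits. The share of all genes called in those 3 fits is not given here, so that these counts cannot be set against it. The 4 called spots fell to 1 with the deposited column of the pig as it stood, an alternative chosen after seeing the data. No diet or interaction call appeared for a factor under any setting. Replicate numbers share a slide, and same-numbered pigs correlated between -0.60 and 0.71 in their deviations from the group means (median 0.20). The median was 0.09 for pigs of the same slide with another number and -0.04 for pigs of other slides. The ranges overlapped widely, and the number was not taken as a pairing in the main fit. EIF3F had an adjusted P of 0.033 with the replicate block and 0.029 with the slide block. The cause of these moves was not tested.

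Of 756 line differences of the 54 genes under the 14 alternatives, 712 kept direction and side of the threshold, 4 newly passed it and 40 changed sign, while 26 genes never did. With the deposited column the sign changed for EEF1E1 (-0.055), EIF1AY (-0.064), EIF2A (-0.021), EIF2B1 (-0.062), EIF2B3 (-0.14), EIF2B5 (-0.070), EIF2C2 (-0.12), EIF3A (-0.11), EIF3B (-0.043), EIF3CL (-0.082), EIF3D (0.069), EIF3G (-0.10), EIF3I (-0.0034), EIF4A1 (-0.026), EIF4A2 (0.013), EIF4E (-0.094), EIF4E2 (-0.0087), EIF4EBP1 (-0.11), EIF4G1 (-0.094), EIF4G2 (-0.060) and EIF5B (-0.050). With background-corrected signal it changed for EEF2 (0.0039), EIF2S1 (-0.0011), EIF3A (-9.06e-05), EIF4EBP1 (-0.0077), EIF5A (-0.017) and EIF5B (-0.018) at the 75th percentile, and for EEF2 (0.016), EIF5A (-0.0052) and EIF5B (-0.0061) at the array median. It changed for EEF1A2 (1.69e-04), EEF2K (0.0011) and EIF5A (-0.0053) with normexp and quantile normalization, for EEF2K (0.018), EIF2A (-0.028) and EIF4A3 (-0.015) with the brightest probe, for EEF1A2 (0.056) and EIF4ENIF1 (0.0076) with all non-control spots, and for EEF1A2 (0.012) and EEF2K (0.0095) without the rebuilt pig. Leaving out 1 pig that stood apart, chosen after seeing the data, gave 0.076 for EIF1, 0.016 for EIF2C4, 0.048 for TSC1, 0.15 for MTIF3 and 0.029 for PPP1R15A (0.12 with it). The median line difference of all genes was 0.02 to 0.03 except with the deposited column, where it moved to -0.08. Signal over background limits the dimmest factors.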
